A study of Homo sapiens with 4 samples.

Results

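Across chromosomes 1 to 22, EZH2 peaks covered 235 windows of 1 Mb mainly in HEK293 cells with an induced wild-type histone H3.1. Cells with the K27M mutant had at most 0.5 times as many covered bases there. The windows were chosen from the peak lists themselves. A fixed 1 Mb window (hg19, from the first base of each chromosome) was taken when merged H3.1-WT peaks covered at least 15000 of its bases and merged H3.1-K27M peaks covered at most 0.5 times as many. Of 2897 autosomal windows, 715 met the first condition and 235 of those met both, which is 32.9% of the 715 and 8.11% of all. They held 3883 of the 29018 autosomal H3.1-WT peaks and 1635 of the 28323 autosomal H3.1-K27M peaks, counted by peak midpoint. The lower H3.1-K27M coverage of these windows is therefore the rule and not a result.

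The assay was CUT&RUN: permeabilised cells, 200000 per reaction, were bound by an antibody, and a nuclease tethered to it released the surrounding DNA for sequencing. HEK293, an established human embryonic kidney line, received H3.1-WT or H3.1-K27M from a lentivirus, was selected with 0.5 mg/ml G418 and was induced with 1 µg/ml doxycycline, so that the cells differ in the histone delivered and share the delivery, selection and induction. There were 4 libraries: 1 EZH2 library and 1 library with the anti-rabbit HRP secondary antibody, the negative control, for each histone. The titles of the mutant libraries read H31, and the genotype was taken from their genotype label. With no replicates, no difference between the histones can be tested, intervals cover counting error only, and the depth of the libraries is unknown because the peak lists hold no read counts.

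EZH2 is the catalytic subunit of Polycomb repressive complex PRC2, which methylates lysine 27 of histone H3. H3K27 trimethylation marks silent developmental genes, often over broad domains at unmethylated CpG islands. K27M replaces this lysine with methionine and is found in diffuse midline gliomas, where the mark is lost from much of the genome and kept at a smaller number of sites.

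H3.1-WT covered 4.979 Mb in them in all, and H3.1-K27M 1.576 Mb, a ratio of 0.317. Over all autosomal windows the ratio was 1.04, over the other 480 windows with at least 15000 H3.1-WT bases it was 1.56, and over the 2182 windows with fewer H3.1-WT bases it was 0.818. By window, H3.1-WT covered from 15033 to 70750 bases with a median of 18959. H3.1-K27M covered from 851 to 27478 bases with a median of 6417. The ratio of H3.1-K27M to H3.1-WT bases had a lowest value of 0.0512, a median of 0.326 and a highest value of 0.499. It was under 0.25 in 75 windows and under 0.1 in 8. Over all autosomal windows the median coverage was 8863 bases for H3.1-WT and 4090 for H3.1-K27M. The median ratio, over autosomal windows with H3.1-WT bases, was 0.497. The median window of the set thus lay above the autosomal median in both lists, and below it in the ratio. The opposite rule, H3.1-K27M at least 15000 bases and H3.1-WT at most 0.5 times as many, held in 266 windows, or 43.3% of those with enough H3.1-K27M bases.

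**Figure D1:**
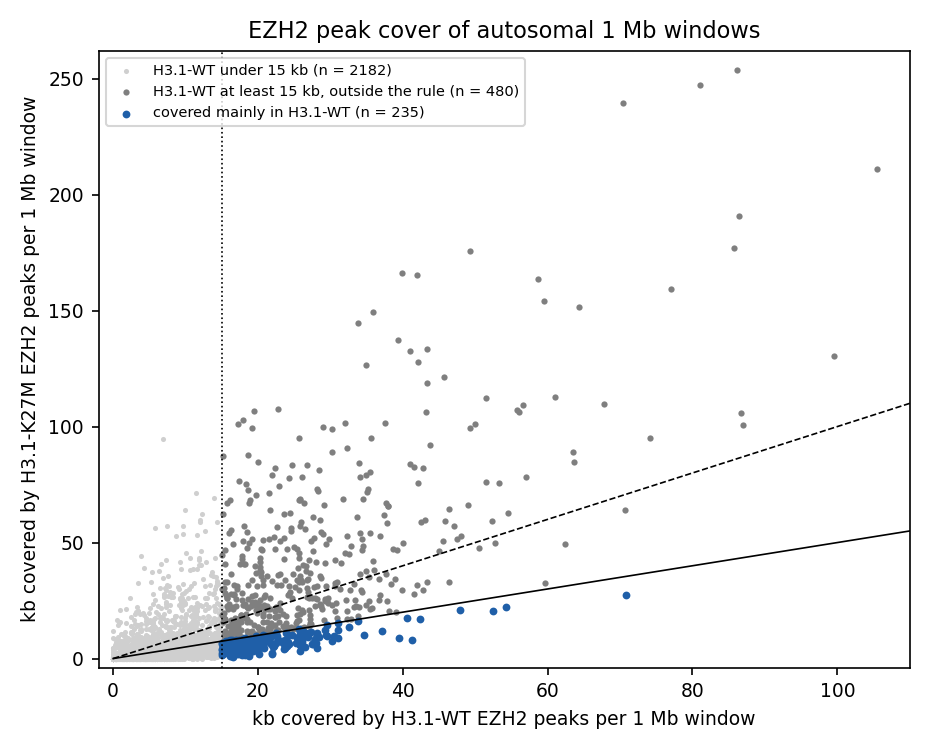
Kilobases covered by H3.1-K27M EZH2 peaks (vertical axis) against kilobases covered by H3.1-WT EZH2 peaks (horizontal axis), 1 point per autosomal 1 Mb window. The solid line marks a ratio of 0.5, the dashed line equal coverage and the dotted line the H3.1-WT minimum of 15000 bases. The 235 windows described here lie right of the dotted line and on or below the solid one, and no gap separates them from their neighbours on either side.

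Among the 715 windows with at least 15000 H3.1-WT bases, the 235 form the low end of a continuous spread of ratios. They are not the low end of all windows. The 2182 windows with fewer H3.1-WT bases had a median ratio of 0.418, taken where H3.1-WT bases were present. Just inside the ratio bound lay the window in 18q23 (chromosome 18, 74000001 to 75000000), with 22431 bases for H3.1-WT and 11192 for H3.1-K27M, a ratio of 0.499. Just outside lay the window in 20q13.2 (chromosome 20, 52000001 to 53000000), with 25905 and 12992 bases, a ratio of 0.502. There were 22 windows with a ratio from 0.45 to 0.5 and 32 outside the rule with a ratio up to 0.55. The lowest H3.1-WT coverage inside was 15033 bases, in 10p11.22, and the highest among windows that missed only this minimum was 14946 bases, in 6p21.31. A further 38 windows met the ratio bound with 14000 to 15000 H3.1-WT bases, against 35 members with 15000 to 16000.

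Coverage in these windows was made of many narrow peaks, not of a few domains. A window held 6 to 48 H3.1-WT peaks, with a median of 16, and 1 to 25 H3.1-K27M peaks, with a median of 7. In the other 480 windows the medians were 20 and 24, so many peaks per window is not particular to the set. The widest H3.1-WT peak gave a median of 20.7% of its window's H3.1-WT bases, and over 50% in 1 window. H3.1-K27M had more peaks than H3.1-WT, or as many, in 1 window. In number the peaks stood at a ratio of 0.421, less extreme than the 0.317 of the bases, and the widths go with that difference. The median H3.1-WT peak here was 897 bases wide and the median H3.1-K27M peak 683 bases. Over all autosomal windows these medians were 778 and 810, so the H3.1-WT peaks here were on the wide side. In the other 480 windows the order was opposite, with 823 bases for H3.1-WT and 926.5 for H3.1-K27M. In the 2182 windows with fewer H3.1-WT bases the medians were 722 and 711. Covered bases depend on peak width, so the rule favours narrower H3.1-K27M peaks in the set than in the other 480 windows. The opposite order is therefore partly set by the rule.

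The rule used covered bases at every peak strength. Strength is therefore described separately, with the authors' −log10 q, which grows with confidence that a peak exceeds the background set with the HRP control. Peaks with −log10 q of at least 5, called strong below, numbered 346 for H3.1-WT and 80 for H3.1-K27M in these windows, a ratio of 0.231. Over all autosomes they numbered 2024 and 619, a ratio of 0.306. In the other 480 windows the ratio was 0.470, and in the 2182 windows with less H3.1-WT coverage it was 0.203. The strong-peak ratio here thus lay between those of the other 2 classes, near that of the thinly covered windows. As the minimum rose, the H3.1-K27M to H3.1-WT peak ratio in these windows went from 0.421 with all peaks to 0.292 for a −log10 q minimum of 2, 0.226 at 3, 0.231 at 5 and 0.135 at 10. Over all autosomes the same steps were 0.976, 0.588, 0.377, 0.306 and 0.197. The gap to all autosomes with all peaks counted is set by the rule, which used those peaks. Stronger peaks are part of the bases that the rule used, so the gaps at higher minima are partly set by it too.

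The lowest ratios went with fewer strong H3.1-WT peaks. The share of the 715 windows with at least 15000 H3.1-WT bases that held a strong H3.1-WT peak was 75.1%, and among the 235 it was 171 windows. A strong H3.1-K27M peak lay in 67 of the 235 windows, in 241 of the other 480 and in 177 of the 2182 thinly covered ones. No strong peak of either list lay in 59 of the 235, a number not counted for the other classes. Ordered by ratio and divided into 4 classes of nearly equal size, the 58 windows with ratios from 0.0512 to 0.226 held 37 strong H3.1-WT peaks, with at least 1 in 29 windows. The 59 windows with ratios from 0.407 to 0.499 held 109, with at least 1 in 49 windows. The median H3.1-WT coverage of these end classes was 17821 and 19063 bases, and the median number of H3.1-WT peaks 15 and 16. The classes were defined by the ratio after the values were known and describe the list only.

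The 10 windows with the lowest ratios show this in detail. In the window in 1p21.2 (chromosome 1, 100000001 to 101000000), 13 H3.1-WT peaks covered 16606 bases and 2 H3.1-K27M peaks covered 851, the lowest ratio found. Its strongest H3.1-WT peak had a −log10 q of 3.33 and a fold enrichment of 4.33. Only 1 of its H3.1-WT peaks met an H3.1-K27M peak, over 296 bases of a peak 3910 bases wide. In 18q12.1 (chromosome 18, 29000001 to 30000000), 13 H3.1-WT peaks covered 16302 bases and 1 H3.1-K27M peak 1248. In 18q21.2 (chromosome 18, 53000001 to 54000000), 15 H3.1-WT peaks covered 15050 bases and the single H3.1-K27M peak, 1527 bases wide, met none of them. In 5q13.2 (chromosome 5, 72000001 to 73000000), 17 H3.1-WT peaks covered 21872 bases and 4 H3.1-K27M peaks 2135. Over all 10, the strongest H3.1-WT peak of a window had a −log10 q from 3.33 to 7.29, none had more than 1 strong H3.1-WT peak, and none had a strong H3.1-K27M peak. These are windows of many weak calls in 1 list.

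**Figure D2:**
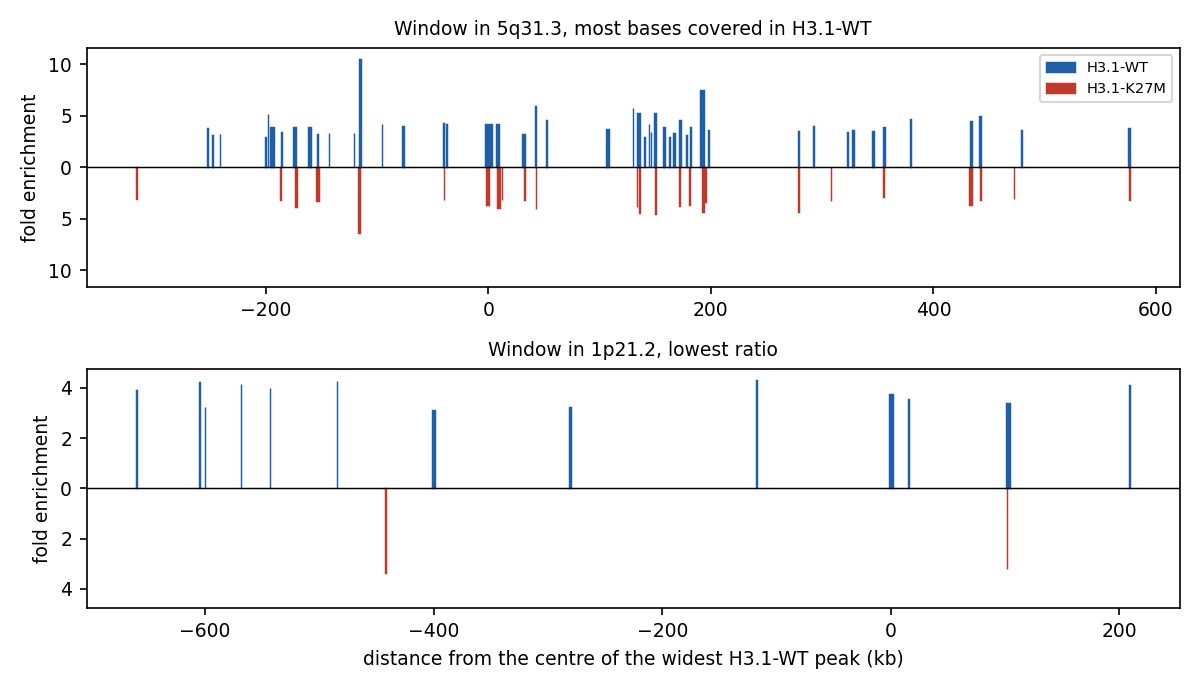
Peaks of the window with most H3.1-WT bases (5q31.3, top) and of the window with the lowest ratio (1p21.2, bottom). Bars stand at each peak with its fold enrichment as height, H3.1-WT upward and H3.1-K27M downward, against distance in kb from the centre of the widest H3.1-WT peak; a thin outline keeps narrow peaks visible. In 5q31.3 there are 48 H3.1-WT peaks and 25 H3.1-K27M peaks, and in 1p21.2 there are 13 and 2.

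The windows with most H3.1-WT bases had another make-up. The first was in 5q31.3 (chromosome 5, 140000001 to 141000000), with 70750 bases in 48 H3.1-WT peaks against 27478 in 25 H3.1-K27M peaks. It held 8 strong H3.1-WT peaks and 1 strong H3.1-K27M peak, and 19 peaks of each list met the other. Its strongest H3.1-WT peak (140305188 to 140306940) had a fold enrichment of 10.5 and a −log10 q of 23.8, and the H3.1-K27M peak on it a fold of 6.37 and a −log10 q of 9.51. The window in 6q16.2 (chromosome 6, 100000001 to 101000000) had 52452 and 20320 bases, and the window in 10p12.31 (chromosome 10, 22000001 to 23000000) 42404 and 16909. In 9q21.11, the adjoining windows from 69000001 and from 70000001 on chromosome 9 had 47834 and 54274 H3.1-WT bases against 20875 and 22103. The pericentromeric part of chromosome 9 holds long, nearly identical duplicated segments, and no source used here says how reads that match several places were treated, so these windows are uncertain. In 2q35 (chromosome 2, 219000001 to 220000000) the values were 40551 and 17514 bases.

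A second kind of densely covered window had few strong peaks. In 6p22.1 (chromosome 6, 28000001 to 29000000), 39 H3.1-WT peaks covered 41223 bases and 13 H3.1-K27M peaks 7804. In 6p22.2 (26000001 to 27000000), 36 H3.1-WT peaks covered 39446 bases and 11 H3.1-K27M peaks 8651. Each of these windows held 1 strong H3.1-WT peak. In 6q24.2 (chromosome 6, 143000001 to 144000000), 31 H3.1-WT peaks covered 37176 bases and 14 H3.1-K27M peaks 11682, and no peak of either list was strong. Windows of like coverage thus differed in how many strong peaks they held.

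Whether the H3.1-K27M peaks of these windows lay at H3.1-WT positions was read from overlap, at a minimum of 1 shared base. Of the 1635 H3.1-K27M peaks, 1185 met an H3.1-WT peak, a share of 72.5% (95% exact binomial interval 70.2 to 74.6%). Over all autosomal H3.1-K27M peaks the share was 35.3%. Of the 3883 H3.1-WT peaks, 1123 met an H3.1-K27M peak, 28.9% (27.5 to 30.4%). The autosomal share was 34.7%, that of the other 480 windows 47.7% and that of the 2182 thinly covered windows 26.8%. These shares are partly set by the rule. Windows with much more H3.1-WT than H3.1-K27M coverage give an H3.1-K27M peak more to meet and an H3.1-WT peak less. Bases in both lists came to 22.8% of the H3.1-WT bases and 71.7% of the H3.1-K27M bases of the windows. In the thinly covered windows the same shares were 23.6% and 28.9%.

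Overlap rose with peak strength in both directions. Of H3.1-WT peaks with −log10 q from 1 to 1.5, 10.8% met an H3.1-K27M peak (103 of 952). From 2 to 3 it was 29.5% (305 of 1033), from 5 to 10 it was 71.1% (167 of 235), and at 10 or more it was 99.1% (110 of 111). The 2182 windows with less H3.1-WT coverage gave 13.8%, 28.2%, 71.4% and 96.5% in the same classes, close to these values, while the other 480 windows gave 32.6%, 53.3%, 85.0% and 99.4%. Strong H3.1-WT peaks as a whole were met in 277 of 346 cases, 80.1% (75.5 to 84.1%), against 83.5% over all autosomes. Strong H3.1-K27M peaks met an H3.1-WT peak in 77 of 80 cases, and over all autosomes in 96.3%. At a minimum of 1 shared base, the strong H3.1-WT peaks of these windows were mostly met and the weak ones mostly not. The same rise was seen over all autosomal windows, with 21.0%, 36.5%, 75.5% and 98.3%. Median H3.1-WT width here also rose, from 673.5 bases in the lowest class to 4540 in the highest. Wider peaks meet another peak more easily, and strength was not tested apart from width.

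**Figure D3:**
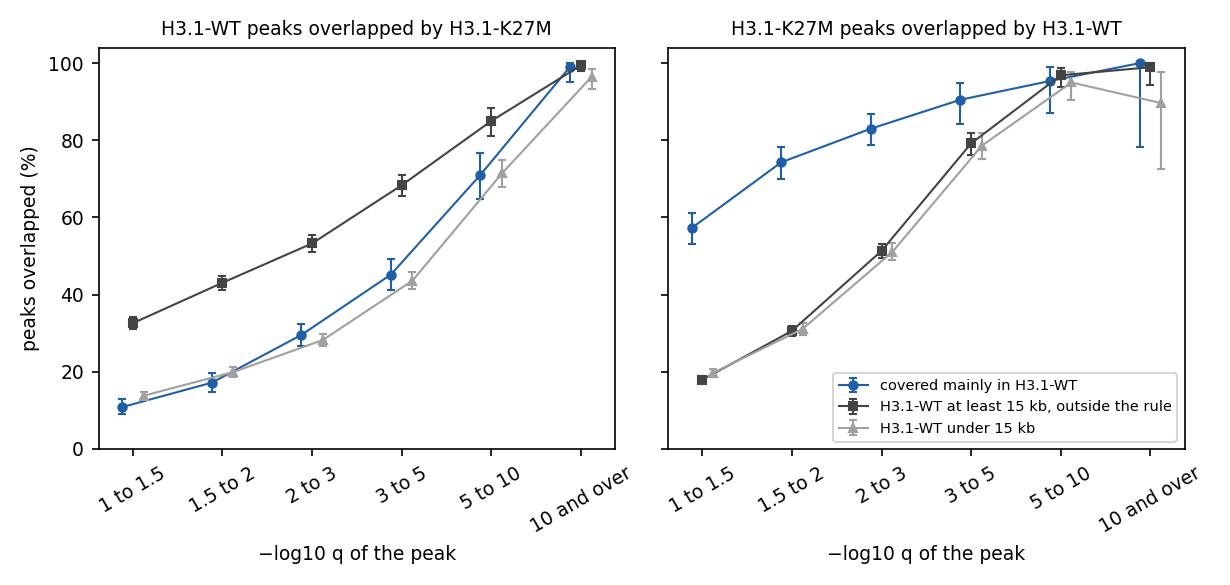
Share of peaks that overlap a peak of the other list (vertical axis, percent), by the −log10 q class of the peak (horizontal axis), for H3.1-WT peaks on the left and H3.1-K27M peaks on the right. Points are shares, bars are 95% exact binomial intervals, and colours are the 3 window classes. In the left panel the windows described here follow those with under 15000 H3.1-WT bases, and at a −log10 q of 10 or more they reach 99.1%.

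The H3.1-WT peaks of highest −log10 q were nearly all met by H3.1-K27M, and the part of each peak covered varied. Of the 111 H3.1-WT peaks at a −log10 q of 10 or more, 110 met an H3.1-K27M peak, where the autosomal share was 98.3%. A strong H3.1-K27M peak lay on 52 of them, 46.8% (37.3 to 56.6%). The autosomal share for a strong partner was 55.8%. It was 69.0% in the other 480 windows and 41.7% in the thinly covered ones. H3.1-K27M covered a median of 61.1% of each such peak that was met here, against 85.6% in the other 480 windows. Over H3.1-WT peaks of any strength that were met, the covered share had a median of 49.4% here and 75.3% in the other 480 windows. The rule bounds H3.1-K27M bases, so narrower H3.1-K27M peaks are favoured by it.

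H3.1-K27M left 3848.9 kb of the H3.1-WT bases of these windows uncovered, and 67.3% of these lay in H3.1-WT peaks that met no H3.1-K27M peak at all. That share was near the 69.3% over all autosomal windows, with 60.1% in the other 480 windows and 75.7% in the thinly covered ones. Such unmet peaks had a median width of 754.5 bases, a median fold enrichment of 3.37 and a median −log10 q of 1.81, against 1589 bases, 3.91 and 2.97 for those that were met. They lay a median of 42.7 kb from the nearest H3.1-K27M peak, and 12.7% lay within 5 kb of one, compared with 38.4 kb and 19.4% over all autosomes. Of 87 H3.1-WT peaks at least 5 kb wide, 82 met an H3.1-K27M peak, near the autosomal share of 96.7% (503 of 520).

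Among single peaks, the widest H3.1-WT peak of these windows was in 6q16.2 (chromosome 6, 100059013 to 100070826), 11814 bases wide with a fold enrichment of 7.09, of which H3.1-K27M covered 6026 bases. In 2q31.1 (chromosome 2, 176941812 to 176951708), H3.1-K27M covered 3162 of 9897 bases. In 18q21.31 (chromosome 18, 55017874 to 55026950), it covered 8760 of 9077 bases. The highest fold enrichment, 21.6, belonged to a peak in 18q23 (chromosome 18, 74960314 to 74965831), and H3.1-K27M covered all of its 5518 bases with a peak of fold 10.2. Next came 9q22.33 (chromosome 9, 101702674 to 101708479) at 16.3, where H3.1-K27M covered 2744 of 5806 bases, and 9q34.12 (chromosome 9, 133533815 to 133541696) at 16.1, where it covered 6648 of 7882. All 10 H3.1-WT peaks of highest fold, and all 10 of greatest width, met an H3.1-K27M peak.

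Of the 346 strong H3.1-WT peaks of these windows, 69 had no H3.1-K27M peak on them, where the autosomal share was 16.5% (334 of 2024). One had a −log10 q above 10: a peak in 5q23.2 (chromosome 5, 122990639 to 122990964) of only 326 bases with a fold of 4.57 and a −log10 q of 32.6, whose nearest H3.1-K27M peak was 127 kb away. The next was in 19q13.33 (chromosome 19, 50835796 to 50837159), with a −log10 q of 8.23 and an H3.1-K27M peak 2.92 kb away. In 6p21.1 (chromosome 6, 41862228 to 41863854) a peak with a −log10 q of 6.93 had its nearest H3.1-K27M peak 390 kb away. In the other direction 3 strong H3.1-K27M peaks met no H3.1-WT peak.

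By chromosome, the windows were spread unevenly, with none on chromosomes 4 and 14. Chromosome 6 held 46 of them, 19.6%, although it holds 5.94% of the autosomal windows. It was also dense in H3.1-WT: 123 of its 172 windows had at least 15000 H3.1-WT bases, and 37.4% of those were in the set, against 32.9% over all autosomes. Chromosome 1 held 31 of 66 such windows (47.0%), chromosome 17 held 13 of 27 (48.1%) and chromosome 15 held 10 of 20. Chromosome 5 held 20 of 80 and chromosome 20 held 1 of 18 (5.56%). Over the whole of chromosomes 5 and 6, these windows included, the ratio of H3.1-K27M to H3.1-WT bases was 1.38 and 1.24.

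**Figure D4:**
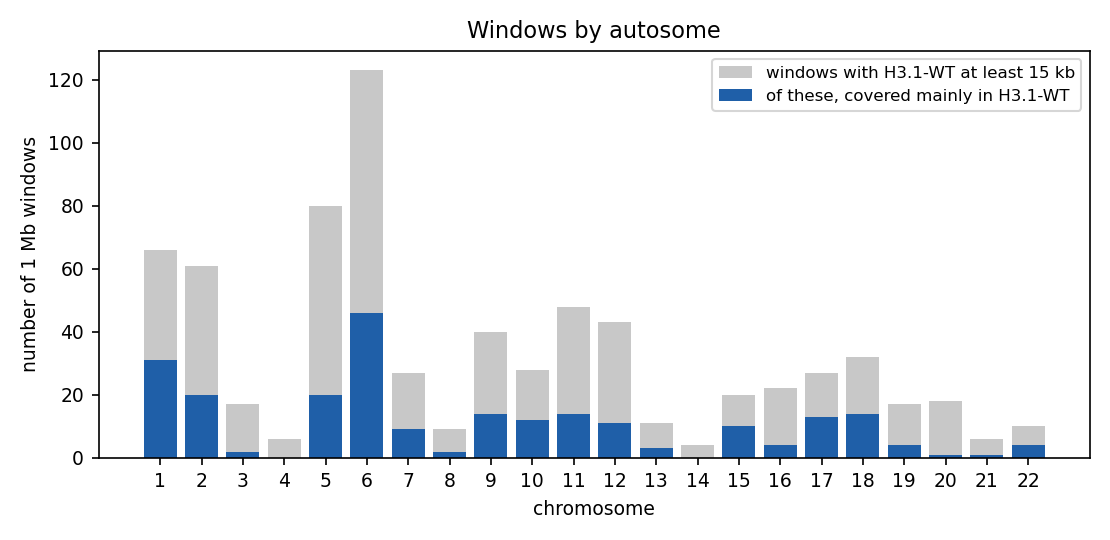
Number of 1 Mb windows (vertical axis) per autosome (horizontal axis) with at least 15000 H3.1-WT bases (grey, full bar height) and, of these, those covered mainly in H3.1-WT (blue). Chromosome 6 has 123 and 46, and chromosome 20 has 18 and 1.

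Most of the windows stood alone. Of 187 runs of adjoining windows, 156 were single windows, 19 were pairs and 12 were longer. The 341 windows next to a member but outside the rule had a median ratio of 0.509, and 77.9% of those with H3.1-WT peaks were under 1. Over all autosomal windows outside the rule, the median was 0.567 and 67.7% were under 1. Windows next to the other 480 had a median of 0.993. The longest run held 5 windows, in 6q23.1 to 6q23.2 (chromosome 6, 130000001 to 135000000), with 95804 bases for H3.1-WT and 29724 for H3.1-K27M. Runs of 4 lay in 5q31.3 (chromosome 5, 139000001 to 143000000), with 135401 and 51153 bases, in 6q22.31 to 6q22.33 (chromosome 6, 125000001 to 129000000), with 98793 and 34839, and in 15q25.2 to 15q25.3 (chromosome 15, 82000001 to 86000000), with 64476 and 15679. Among runs of 3, the one in 6p22.2 to 6p22.1 (chromosome 6, 26000001 to 29000000) had the lowest ratio, 0.207, with 103 H3.1-WT and 31 H3.1-K27M peaks.

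Giemsa stain, which the rule did not use, differed between the window classes. Light bands are richer in genes and G and C bases, and the darkest bands are gene-poor. Of the 235 windows, 130 had their midpoint in a light band, 55.3% (48.7 to 61.8%), against 36.0% of the other 480 windows and 42.3% of all autosomal windows. In the darkest bands lay 23 of them, 9.79%, against 23.3% of the other 480. Of windows with at least 15000 H3.1-WT bases, 42.9% of those in light bands belonged to the set, and the share was 42.3%, 33.9%, 20.7% and 17.0% from the palest to the darkest grey. Of the 266 windows of the opposite rule, 55 (20.7%) lay in light bands, 4 in the palest grey and 110 (41.4%) in the darkest. Neighbouring windows are not independent, so the intervals are too narrow. By bands of the same name, the median density of RefSeq protein-coding genes was 6.09 per Mb for these windows, 4.02 for the other 480 and 2.85 for the opposite rule.

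**Figure D5:**
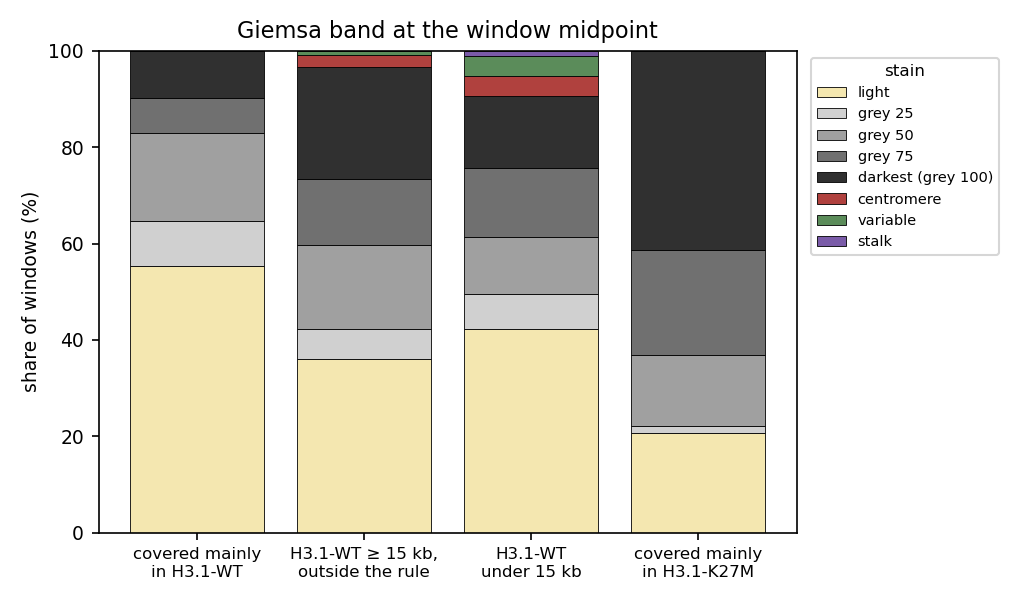
Share of 1 Mb windows (vertical axis, percent) by the Giemsa stain of the band at the window midpoint, for 4 window classes (horizontal axis). Light bands hold 55.3% of the windows covered mainly in H3.1-WT and 20.7% of those covered mainly in H3.1-K27M.

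Genes could be tied to the windows only through band names. The RefSeq gene table used here is on another build (GRCh38.p14), so a gene was placed in the hg19 band of the same name. A band can be several Mb long, no peak was assigned to a gene, and a gene named below shares a band with these windows, without a peak having been placed at it. The windows lay in 178 bands. In 60 bands at least 50% of the windows belonged to the set, and these bands hold 8.45% of 19126 autosomal protein-coding genes, while 31.6% share a band with at least 1 of the windows. In 2 of the 60 bands, 11q14.2 and 17q21.33, H3.1-K27M covered more bases than H3.1-WT over the whole band.

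Gene families that sit together in 1 place followed their band. All 53 clustered protocadherin genes, which encode adhesion molecules that give neurons individual surface identities, lie in 5q31.3, where 4 of 5 windows belonged to the set. Of 73 histone genes, 57 lie in bands of which at least 50% of the windows belonged to it. The replication-dependent histone genes of chromosome 6, transcribed in S phase, account for most of them, with 34 in 6p22.2 and 21 in 6p22.1. Of 21 HLA genes, which encode antigen-presenting molecules, 13 lie in 6p21.32. Its window (chromosome 6, 32000001 to 33000000) had 30 H3.1-WT peaks over 29485 bases and 12 H3.1-K27M peaks over 9736, with 3 strong peaks for H3.1-WT and 0 for H3.1-K27M. Of 525 zinc finger genes named ZNF, ZKSCAN, ZSCAN and the like, 22 lie in such bands, 4.19%, under the 8.45% of all genes. Protocadherin, histone and HLA genes have closely similar copies, between which short reads can be hard to place. Members of 1 cluster share a band and are not independent, so these counts describe bands.

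The lists of developmental genes, many of them known Polycomb targets, differed in how many members lay in such bands. The share of all protein-coding genes there was 8.45%. HOX genes, which pattern the body axis, had 10 of 39 in bands with at least 50% of windows in the set, all of them HOXB genes in 17q21.32. That band reaches 50% with 1 of its 2 windows, and its whole-band ratio was 0.527. The bands 1q42.12, 12q13.12 and 6p25.3, named below, also reach it with 1 of 2. The window of the set in 17q21.32 (chromosome 17, 46000001 to 47000000) had 24 H3.1-WT peaks over 26130 bases and 9 H3.1-K27M peaks over 7815. It held 1 strong H3.1-WT peak. The HOXD and HOXC bands, 2q31.1 and 12q13.13, each held windows of the set without reaching 50%. The window from 176000001 on chromosome 2 had 27587 H3.1-WT and 6430 H3.1-K27M bases, and the window from 54000001 on chromosome 12 had 26037 and 9726. Of 78 genes of Hedgehog, WNT, FGF, BMP and Notch signalling, 14 lie in such bands, 17.9%. They include the secreted ligands WNT3A and WNT9A in 1q42.13, WNT1, WNT10B and DHH in 12q13.12, and LEFTY1 and LEFTY2 in 1q42.12. In the 1q42.13 window from 228000001 on chromosome 1, H3.1-WT covered 29421 bases with 5 strong peaks and H3.1-K27M 10069 with 3. Forkhead genes had 5 of 31 (16.1%), among them FOXC1, FOXF2 and FOXQ1 in 6p25.3. The H3.1-WT peak at 1309319 to 1316860 of chromosome 6 in that band had a fold of 15.3. H3.1-K27M covered 5208 of its 7542 bases, with a −log10 q of 12.4. No LIM homeobox (0 of 12), NKX (0 of 14), GATA (0 of 5) or Iroquois (0 of 6) gene lies in such a band, though all 6 Iroquois genes share a band with at least 1 of the windows. Of 76 other homeobox genes, 3 lie in such bands, 3.95%, under the 8.45% of all genes.

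Other listed genes were single cases. PAX2, TLX1 and WNT8B, a kidney and ear regulator, a homeobox factor and a WNT ligand, lie in 10q24.31, whose window (chromosome 10, 102000001 to 103000000) had 25786 H3.1-WT and 11247 H3.1-K27M bases. PRDM12, a regulator of pain-sensing neurons, lies in 9q34.12, and PRDM13, a regulator of spinal and retinal neurons, in 6q16.2. EYA4 and TCF21, a transcriptional cofactor of inner ear and heart and a mesenchymal bHLH factor, lie in 6q23.2, where all 4 windows belonged to the set with 73998 H3.1-WT and 23033 H3.1-K27M bases. Subunits of the Polycomb complexes themselves had 4 of 31 in such bands, 12.9%: EED, PCGF1, PHF1 and RING1. The share of all protein-coding genes was 8.45%. The band of EED, 11q14.2, had 25048 H3.1-WT and 63930 H3.1-K27M bases over its 2 windows, so it was covered mainly in H3.1-K27M. Of 26 housekeeping genes, 3 lie in such bands, 11.5%. Counts this small do not set the Polycomb subunits apart from the housekeeping genes.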

How the data were processed

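EZH2 and HRP CUT&RUN libraries were made from HEK293 cells with H3.1-WT or H3.1-K27M, 1 per combination, and grouped by their titles and genotype labels. The build hg19 and the tools Bowtie2 2.3.5.1, MACS2, Picard, deepTools and cutadapt come from the submitters' processing notes. Roles and parameters are not given in the sources used here. The authors deposited 2 lists of broad peaks, each naming 1 EZH2 and 1 HRP library, so peaks were called per library. Each peak has a fold enrichment, a ratio over the caller's background, deposited by the authors. It also has −log10 p and −log10 q values, deposited by the authors, of which the lowest −log10 q was 1.01 for H3.1-WT and 1.00 for H3.1-K27M. These values depend on library depth, which is unknown.

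Covered bases are merged peaks within fixed 1 Mb windows. A peak belongs to the window of its midpoint. Bands came from circlize 0.4.16 in R 4.3.3, and hg19 chromosome lengths from GenomeInfoDb 1.38.1. Overlap was checked against bedtools 2.31.1 and on simulated data. Other tools were Python 3.11.15, pandas 2.3.3, numpy 2.4.6, matplotlib 3.10.9 and scipy 1.17.1. Of 509 listed gene symbols, 497 were placed on an autosomal band of RefSeq GRCh38.p14. No test was made. Windows and peaks named are the 10 with most H3.1-WT bases, the 10 with lowest ratio, those next to each bound, and the widest, highest-fold and strongest unmet peaks. Other named windows and genes were chosen after their values were seen. The windows, lists and thresholds were chosen with earlier results of these data known. The 50% bound for bands, the families (protocadherin, histone, zinc finger, HLA), the 4 classes by ratio, and the alternatives without chromosome 6 or pericentromeric windows were also chosen after seeing the data. Alternatives changed the peak strength, joining, list length, overlap, window start and H3.1-WT minimum. Chromosome X and Y windows, base composition, promoters and sequences were not analysed here, apart from chromosome X counts under the same rule.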

Additional observations from a re-analysis of the deposited data

How the results depend on the processing

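No paired analysis was possible because neither histone has a second EZH2 library. The 5 values followed here are, in order, the number of windows (235), the ratio of covered bases (0.317), the ratio of peak numbers (0.421), the H3.1-WT peaks met (28.9%) and the H3.1-K27M peaks met (72.5%). Where the peak lists were changed (−log10 q minimum, joining, equal length), only the number of windows comes from the rule applied anew. The ratios and shares are then those of the original 235 windows. With another H3.1-WT minimum or window start, all values come from the newly found windows. With a −log10 q minimum of 2 in both lists the 5 values were 114, 0.227, 0.292, 21.4% and 76.1%. At 3 they were 51, 0.197, 0.226, 17.2% and 77.4%, and at 5 they were 33, 0.193, 0.231, 18.8% and 81.3%. Of the windows then found, 78, 22 and 11 belonged to the 235. Joining peaks within 5000 bases gave 399 windows (215 shared), a base ratio of 0.307 and 32.4% of H3.1-WT peaks met. An H3.1-WT minimum of 10000 bases gave 548, 0.291, 0.396, 25.8% and 67.8%, and one of 20000 gave 98 windows, 0.334 and 74.7% of H3.1-K27M peaks met. A reciprocal overlap of 50% left 12.5% and 29.8% met. Lists of equal length gave a base ratio of 0.321 and windows starting at base 500000 gave 0.326, with 68.0% of H3.1-K27M peaks met. Without chromosome 6 the base ratio was 0.317, and without windows within 5 Mb of a centromere 0.318. The share in light bands, 53.8 to 59.2% over 6 alternatives, moved within its interval. The lower ratio is fixed by the rule, so its direction shows no stability. Base composition and promoter alternatives were not run, since no hg19 genome or annotation was used here. The cause of each move was not tested. Unknown depth limits all values: a peak not called in 1 library may lie below its limit.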

Other observations

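The same rule applied to chromosome X found 0 windows among 52 with at least 15000 H3.1-WT bases, where the autosomal share was 32.9%. The opposite rule found 116 windows there. Chromosome X windows with at least 15000 H3.1-K27M bases were not counted, so the 116 cannot be set against the autosomal share of 43.3%. With windows starting at base 500000, 235 windows again met the rule, and 155 of the original windows overlapped one of them. Of the bases of the original windows, 42.2% lay inside windows of the shifted set, so individual window edges carry little meaning. In the 10q21.2 pair (chromosome 10, 62000001 to 64000000), H3.1-WT covered 33635 bases and H3.1-K27M 4514, a ratio of 0.134 over 2 adjoining windows. In 12q23.3 a single H3.1-WT peak 10313 bases wide (chromosome 12, 106973929 to 106984241) met an H3.1-K27M peak over 5135 bases.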
